A study of Mus musculus with 6 samples.

Results

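The genes described here encode 9 parts of the machinery by which cells display peptides on major histocompatibility complex (MHC) molecules. They are H2-Aa, H2-Ab1, H2-Eb1, H2-DMa and Cd74 of the class II pathway, and B2m, Tap1, Psmb8 and Psmb9 of the class I pathway. They were chosen by name, and the annotation of the array lists 20 probe sets for them alone, of 45037 probe sets tested. Where a gene had several probe sets the brightest stands for it, here and for the other genes mentioned, and 18193 genes could be read in this way. The groups are Meis1 mutant (Meis1cko) DRGs and control DRGs, both from mice at P60 (2 months of age), with 3 mice per genotype and 1 Affymetrix array per mouse. In Meis1cko mice, Cre driven by a fragment of the Nav1.8 promoter removes floxed exon 8 of Meis1, and this promoter is active in most nociceptors. The labels say only that the other mice are controls, and Meis1 F/F littermates served as controls in the behavioral tests. RNA came from whole cervical, thoracic and lumbar DRGs, and intensities are given as the authors normalized them, not as logarithms.

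MHC class I molecules, whose light chain is beta-2 microglobulin (B2m), sit on nearly all nucleated cells and show peptides cut from proteins of the cell itself. The immunoproteasome, which contains the catalytic subunits encoded by Psmb8 and Psmb9, makes such peptides, and the transporter of which Tap1 encodes a subunit carries them into the endoplasmic reticulum. MHC class II molecules are pairs of an alpha and a beta chain, found mainly on macrophages, dendritic cells and B cells, and show peptides from material taken up. Cd74 encodes the invariant chain that fills the class II groove until H2-DM exchanges it for a peptide. Class II transcription depends on the coactivator Ciita, which acts at promoters that carry an X box and a Y box, and both pathways are induced by interferon gamma. In the DRG, resident macrophages lie close to the cell bodies of the neurons.

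The promoters of H2-Aa and H2-Eb1 are shown first, because both genes had every Meis1cko mouse below every control mouse and both hold this class II arrangement. The sequences are those of RefSeq (GRCm38.p6), end at the base before the annotated start site and are written 5′ to 3′ on the strand of the gene. Capitals mark the X box core GCAAC and the Y box core GATTGG, or its reverse complement CCAATC, sought on both strands. The H2-Aa stretch is chr17:34287824-34287953 on the minus strand, and the H2-Eb1 stretch is chr17:34305737-34305866 on the plus strand.
H2-Aa: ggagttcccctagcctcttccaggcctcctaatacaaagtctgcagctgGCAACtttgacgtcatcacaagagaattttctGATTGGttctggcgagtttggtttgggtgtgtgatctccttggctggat
H2-Eb1: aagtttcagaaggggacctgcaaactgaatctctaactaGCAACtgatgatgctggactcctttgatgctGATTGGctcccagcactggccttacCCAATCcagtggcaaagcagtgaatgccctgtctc
In H2-Aa the X core began 81 bases and the Y core 49 bases before the start site, and in H2-Eb1 the distances were 91 and 60 bases. An X core followed by a Y core on the same strand, with 10 to 40 bases between them, was present in 0.502% of the 32851 promoter windows of 300 bases in the table (250 before and 50 after the start). Alone, the Y core was in 16.1% and the X core in 35.2% of them. Both promoters were picked for holding the arrangement, and the motif letters were written after the sequences had been seen, so these shares only describe. H2-DMa and Tap1 also had groups that did not overlap, and their windows lack the arrangement.

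A second set shows the class I side. Tap1 and Psmb9 lie head to head, with 225 bases between their start sites, and that stretch is given on the strand of Tap1 (chr17:34187331-34187555, plus strand). The B2m stretch is chr2:122147507-122147686 on the plus strand. Capitals mark the Y core in both and, in B2m, the interferon-stimulated response element.
Tap1 and Psmb9: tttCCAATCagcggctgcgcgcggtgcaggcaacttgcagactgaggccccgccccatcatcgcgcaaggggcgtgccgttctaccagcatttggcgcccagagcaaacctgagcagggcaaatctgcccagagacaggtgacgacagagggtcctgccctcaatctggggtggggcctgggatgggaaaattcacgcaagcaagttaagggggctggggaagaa
B2m: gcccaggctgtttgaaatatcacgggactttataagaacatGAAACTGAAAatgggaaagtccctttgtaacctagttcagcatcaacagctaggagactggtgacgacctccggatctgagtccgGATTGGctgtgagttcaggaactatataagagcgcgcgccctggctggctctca
The Y core of B2m began 54 bases before its start site, and the response element, which 3.44% of all windows hold, began 139 bases before it. The divergent stretch holds an X core too, but no X core followed by a Y core at the spacing above. The window of Psmb8 had neither core and held a gamma-activated site (TTCNNNGAA, in 8.30% of windows). The first of the 2 windows of H2-DMa had only an X core and the second only a Y core. H2-Ab1 and Cd74 were not matched. A match of letters is a description of the sequence, not of binding.

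On the arrays, all 9 genes had a log2 fold change below 0 in Meis1cko DRGs, between -0.74 for H2-Aa and -0.21 for Tap1, with a median of -0.33. Over all 18193 genes, 54.2% lay below 0 and the median was -0.014. None of the 9 passed the adjusted threshold of limma (adjusted p = 1 for each, Benjamini-Hochberg over all 45037 probe sets), which 0.00666% of all probe sets passed in this direction. At an unadjusted p under 0.05 in limma, 3 of the 9 were lower (H2-Aa, H2-Ab1 and H2-Eb1), against 1.37% of all genes, and with the methods' t-test 0 were (1.55% of all probe sets). In 4 of the 9, every Meis1cko mouse lay below every control mouse, against 3.82% of all genes, and full separation reaches a two-sided p of 0.1 in the exact permutation test, below which 3 mice against 3 cannot go. Genes of a pathway are not independent of each other. In whole ganglia, fewer cells of a type and less RNA per cell cannot be told apart.

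**Figure D1:**
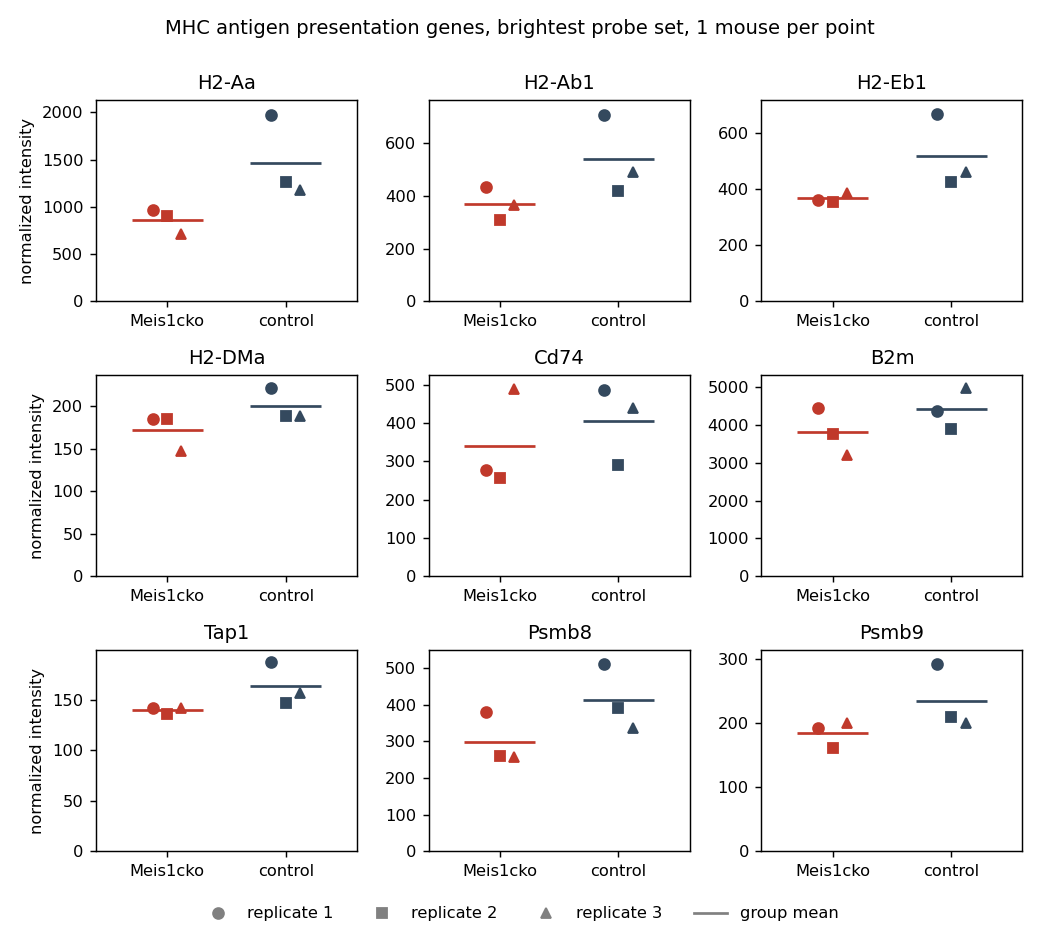
Normalized intensity (linear scale, brightest probe set) of the 9 genes in each Meis1cko and control mouse, with group means as bars and replicate numbers as symbols. H2-Aa lay between 711 and 972 in Meis1cko mice and between 1176 and 1970 in control mice, and control replicate 1 was the highest array for 7 of the 9 genes.

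H2-Aa, which encodes the alpha chain of the class II molecule I-A, had intensities of 972, 903 and 711 in Meis1cko mice, against 1970, 1260 and 1176 in control mice (replicates 1, 2 and 3). All Meis1cko mice lay below all control mice. Mean intensity was 862 ± 135 in Meis1cko DRGs and 1469 ± 436 in control DRGs (SD, n = 3 mice), so that Meis1cko stood at 0.598 of control. On the log2 scale this is -0.74 (SE 0.23, 95% interval -1.27 to -0.21), with an unadjusted p of 0.0124 in limma. Without control replicate 1 it was -0.51, with an unadjusted p of 0.0276 in limma.

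The other 3 probe sets of H2-Aa gave values on the same side, with log2 fold changes of -0.68, -0.54 and -0.51. The second brightest separated the groups more tightly, with 435, 447 and 429 in Meis1cko mice, against 861, 577 and 691 in control mice. Its unadjusted p was 0.00369 in limma. The third also separated all mice, although Meis1cko replicate 1 (236) and control replicate 2 (242) lay close together. On the dimmest probe set (27.5 to 61.2 in Meis1cko and 40.7 to 73.2 in control mice) the groups overlapped. Probe sets of these kinds (names ending in _x_at or _s_at) hold probes that can also bind related transcripts, so H2-Aa signal may include those.

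H2-Ab1 encodes the beta chain that pairs with H2-Aa. It had 432, 307 and 364 in Meis1cko mice, against 708, 419 and 490 in control mice. The groups overlapped only through Meis1cko replicate 1, which lay above control replicate 2. The means were 368 ± 62.6 in Meis1cko and 539 ± 151 in control DRGs (SD, n = 3 mice), with a log2 fold change of -0.53 (SE 0.22, unadjusted p = 0.0468 in limma). Without control replicate 1 it was -0.32. The dimmer probe sets of H2-Ab1 had -0.59 and -0.26, and both overlapped between genotypes. The brightest has a name ending in _s_at, so its signal may also include related transcripts.

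H2-Eb1, the beta chain gene of the I-E molecule, had 359, 354 and 386 in Meis1cko mice, against 667, 424 and 459 in control mice. The Meis1cko mice lay close together and all below the control mice, of which replicate 1 stood well above the other two. The log2 fold change was -0.47 (SE 0.18, unadjusted p = 0.0375 in limma), and without control replicate 1 it was -0.27. Its partner gene H2-Ea, which RefSeq lists as a transcribed pseudogene in the C57BL/6J reference, had 231, 331 and 384 in Meis1cko mice, against 238, 269 and 283 in control mice. The log2 fold change of H2-Ea was 0.23 (SE 0.20), with overlapping groups, so that the H2-Ea probe set did not share the sign of H2-Eb1.

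Of the genes that act on class II after its synthesis, H2-DMa, which encodes a chain of the peptide exchanger, had 185, 185 and 147 in Meis1cko mice, against 222, 189 and 189 in control mice. These groups did not overlap, but by a narrow margin, and the log2 fold change was -0.22 (SE 0.14), or -0.11 without Meis1cko replicate 3. Cd74 had 277, 256 and 489 in Meis1cko mice, against 487, 291 and 438 in control mice. Meis1cko replicate 3 was the highest of all 6 arrays for Cd74, the only member for which a Meis1cko array was. The log2 fold change of Cd74 was -0.28 (SE 0.29, 95% interval -0.97 to 0.41), which includes no difference as well as the size seen for H2-Aa. It rested on single arrays, and was -0.57 without Meis1cko replicate 3 (unadjusted p = 0.0423 in limma), -0.50 without control replicate 2, -0.16 without Meis1cko replicate 1, -0.13 without control replicate 1 and -0.11 without Meis1cko replicate 2. The order of Cd74 among the class II genes therefore cannot be given. The dimmer second probe set of H2-DMa had -0.04.

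On the class I side, Psmb8, an immunoproteasome subunit gene, had 381, 260 and 257 in Meis1cko mice, against 510, 390 and 337 in control mice. The groups overlapped through Meis1cko replicate 1, and the log2 fold change was -0.47 (SE 0.22, unadjusted p = 0.0662 in limma). Psmb9 had 193, 161 and 201 in Meis1cko mice, against 293, 210 and 200 in control mice. Here Meis1cko replicate 3 and control replicate 3 were nearly level, and the log2 fold change was -0.33 (SE 0.18). Without control replicate 1 the log2 fold changes were -0.30 for Psmb8 and -0.16 for Psmb9.

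Tap1 had 142, 136 and 142 in Meis1cko mice, against 187, 147 and 156 in control mice. All Meis1cko mice lay below all control mice, and the log2 fold change was -0.21 (SE 0.13), or -0.11 without control replicate 1. Tap1 has 3 further probe sets, which were dimmer, 2 of them below the 25th percentile of every array, and had -0.03, -0.01 and -0.15. B2m had 4438, 3752 and 3198 in Meis1cko mice, against 4373, 3888 and 4972 in control mice. The genotypes overlapped, and limma gave -0.22 (SE 0.16) here and -0.35 (SE 0.17) on the dimmer probe set. With both replicate 3 arrays left out, the B2m log2 fold change was -0.02, since those were the lowest Meis1cko and the highest control array. It was -0.11 without Meis1cko replicate 3 alone, -0.13 without control replicate 3 alone and -0.34 without Meis1cko replicate 1.

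**Figure D2:**
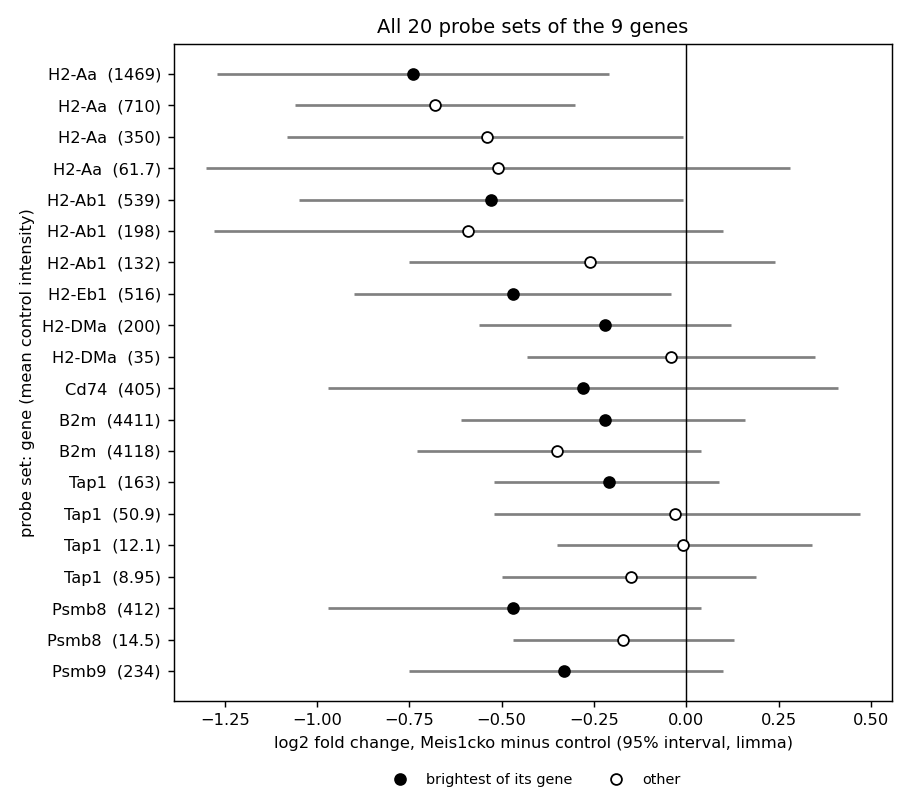
Log2 fold changes (Meis1cko minus control, with 95% intervals from limma) of all 20 probe sets of the 9 genes, with the mean control intensity in brackets. All 20 points lie below 0, and the intervals of 5 probe sets, those of H2-Aa, H2-Ab1 and H2-Eb1, end below 0.

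Over all 20 probe sets, 20 had a log2 fold change below 0, against 52.9% of all probe sets tested. An unadjusted p under 0.05 in limma was reached by 5 (3 of H2-Aa and 1 each of H2-Ab1 and H2-Eb1), against 1.17% of all probe sets. The groups did not overlap in 6, against 3.43%. At the thresholds of the methods, a fold change over 1.5 with a p under 0.05, 2 probe sets of H2-Aa passed in limma, against 0.357%, and none of the 9 genes passed with the methods' t-test (0.206%). Probe sets of a gene read the same transcripts and are not independent.

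The arrays of a genotype differed among themselves. Control replicate 1 was the highest array for 7 of the 9 genes and B2m was highest on control replicate 3. Meis1cko replicate 2 was the lowest array for 5 genes (H2-Ab1, H2-Eb1, Cd74, Tap1 and Psmb9) and Meis1cko replicate 3 for the other 4. Over all genes, control replicate 1 was the highest array for 25.7% and Meis1cko replicate 1 for 25.9%. The median of the 9 genes, each centred on its mean log2 intensity over the 6 arrays, was -0.09, -0.29 and -0.27 on the Meis1cko arrays, against 0.51, -0.02 and 0.09 on the control arrays. Without control replicate 1, all 9 log2 fold changes stayed below 0, with a median of -0.22, and 1 gene (H2-Aa) had an unadjusted p under 0.05 in limma.

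When mice of the same replicate number were set against each other, 24 of 27 differences lay below 0. The median log2 difference of the 9 genes was -0.60 for replicate 1, -0.26 for replicate 2 and -0.37 for replicate 3. The exceptions were B2m in replicate 1 (0.02) and Cd74 (0.16) and Psmb9 (0.01) in replicate 3. H2-Aa, H2-Ab1, H2-Eb1, H2-DMa, Tap1 and Psmb8 were lower in the Meis1cko mouse of all 3 numbers, as were 17.2% of all genes. The labels do not state that mice of the same number are pairs. That pairing was taken from these same data, in which mainly replicate 3 stood apart, so p-values that use it may be too small. With the replicates paired in limma, 5 of the 9 genes had an unadjusted p under 0.05, against 3.69% of all probe sets. It was 0.00265 for Psmb8, 0.00175 for H2-Ab1 and 5.94e-04 for H2-Aa. None passed the adjusted threshold in this fit (0.0377% of all probe sets did, in this direction), where the adjusted p lay between 0.168 for H2-Aa and 0.820 for B2m.

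**Figure D3:**
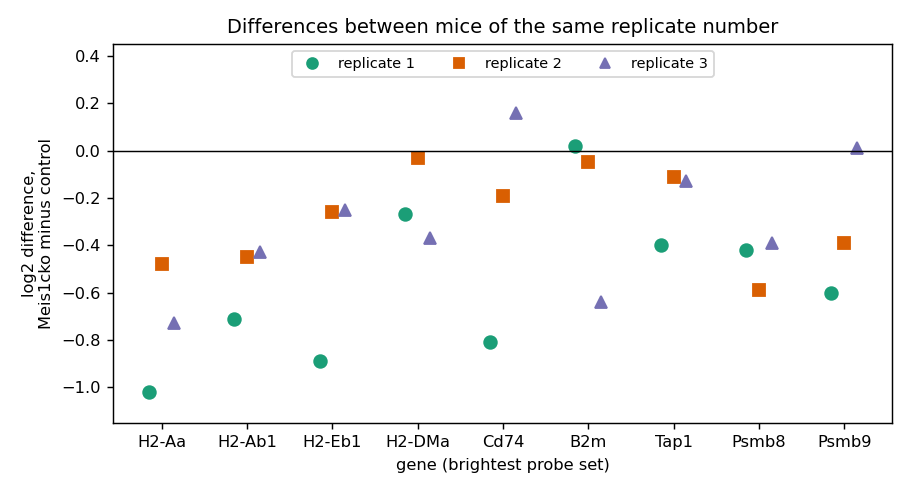
Log2 difference in intensity (Meis1cko minus control) between the mice of the same replicate number, for the brightest probe set of each of the 9 genes. Of 27 points 24 lie below 0, and replicate 1 reaches -1.02 for H2-Aa.

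Of the genes described, 7 lie in the MHC region of chromosome 17, B2m lies on chromosome 2 and Cd74 on chromosome 18. Along the region, the other measured genes had log2 fold changes between -0.22 for H2-K1 and 0.17 for H2-Oa, and whether they differ from the 7 was not tested. H2-DMb2, which encodes a beta chain of H2-DM, stood at -0.06 on the log2 scale (SE 0.15). H2-DMb1, which lies beside it, was not measured. H2-Ob and H2-Oa, whose products form the inhibitor H2-DO, had 0.01 and 0.17. Tap2, the partner of Tap1 in the transporter, had -0.13 (SE 0.16) and lies between Psmb8 and H2-Ob. Brd2, a chromatin reader gene beside H2-DMa, had 0.10, and the class II gene H2-Eb2 had -0.05. None of the other measured genes between H2-K1 and H2-Eb2 had an unadjusted p under 0.05 in limma.

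**Figure D4:**
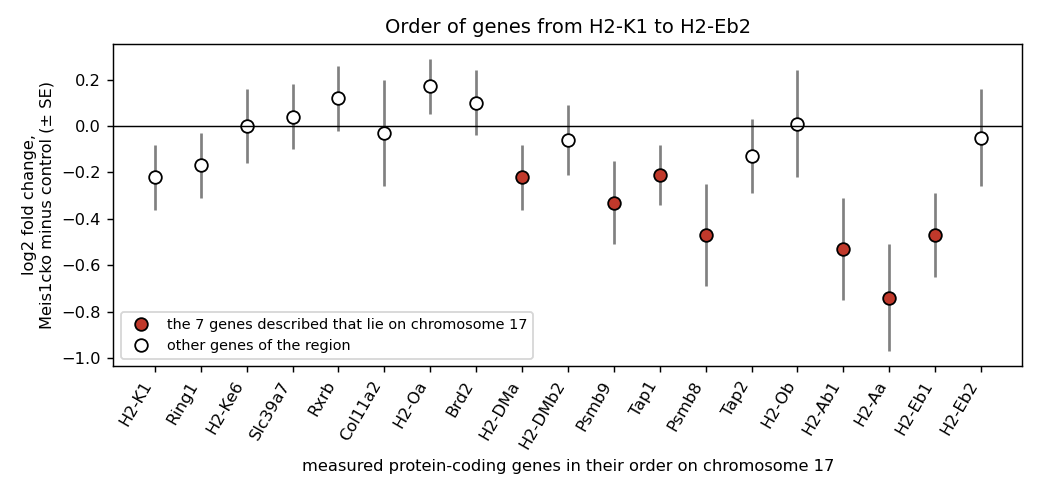
Log2 fold change (Meis1cko minus control, with SE) of the measured protein-coding genes of the MHC region from H2-K1 to H2-Eb2, in their RefSeq order, with the 7 genes described here filled. The filled points run from -0.74 to -0.21, and the open points from -0.22 for H2-K1 to 0.17 for H2-Oa.

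The rest of both pathways was taken from fixed lists. Of 9 other measured class II genes, 5 lay below 0 and 4 above, with a median of -0.02, and none reached an unadjusted p under 0.05 in limma. Ifi30, the thiol reductase of the lysosome, had 0.08, and Marchf1, the ubiquitin ligase that removes class II from the surface, had -0.14. Of 11 measured class I heavy chain and related genes, 8 lay below 0, and the median was -0.04. The classical heavy chain genes H2-K1 and H2-D1, which pair with B2m, had -0.22 (SE 0.14) and -0.26 (SE 0.16). Both were lower in the Meis1cko mouse of all 3 replicate numbers while the groups overlapped. Their probe sets have names ending in _x_at and can also bind related transcripts. H2-K1 and H2-D1 may therefore share signal and are not separate readings. H2-M3, which encodes a nonclassical chain that presents formylated peptides, lay on the other side. It had 403, 410 and 332 in Meis1cko mice, against 314, 246 and 257 in control mice, with no overlap and a log2 fold change of 0.49 (SE 0.15, unadjusted p = 0.0129, adjusted p = 1 in limma). The nonclassical genes H2-T24 and Cd1d1 had 0.45 and 0.47, with overlapping groups.

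Of 8 class I peptide loading genes, 5 lay below 0, with a median of -0.03. The tapasin gene Tapbp had -0.17, the chaperone genes Calr and Hspa5 had 0.11 and 0.16, and none reached an unadjusted p under 0.05 in limma. Of 17 other proteasome genes, 16 lay below 0, with a small median of -0.08. Psme1, a subunit of the activator PA28, had 611, 513 and 574 in Meis1cko mice, against 802, 643 and 737 in control mice. All its Meis1cko mice lay below all control mice, with a log2 fold change of -0.36 (SE 0.14, unadjusted p = 0.0325, adjusted p = 1 in limma). Psmb10, the gene of the remaining catalytic immunoproteasome subunit, had -0.18 (SE 0.13), and the core subunit genes Psmb3 and Psma7 had -0.20 and -0.23.

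Among 18 measured regulators of MHC transcription, none reached an unadjusted p under 0.05 in limma, and the median was -0.05. Ciita was dim, with 31.2, 45.7 and 39.9 in Meis1cko mice, against 45.4, 42.7 and 47.5 in control mice. Its groups overlapped, with a log2 fold change of -0.23 (SE 0.16). Nlrc5, the corresponding coactivator gene of class I, had 0.27 (SE 0.15), on the other side of 0 from B2m and Tap1. Nfyb, which encodes a subunit of the Y box factor, had -0.12, and the interferon gamma receptor gene Ifngr2 had -0.32 (SE 0.32). With the replicates paired in limma, 1 of the 18 regulators was lower at an unadjusted p under 0.05, against 3.69% of all probe sets. Of the 11 class I heavy chain and related genes, 1 was lower and 2 were higher in that fit. The share of all probe sets that were higher was not counted, and none of these genes passed the adjusted threshold.

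Markers of cells that carry class II were examined beside these values. Of 18 monocyte and macrophage markers, all measured, 12 lay below 0, with a median of -0.09, and their summed intensity was 2418 to 3774 on the Meis1cko arrays and 2764 to 4324 on the control arrays. None was listed at 0. Mrc1, the mannose receptor gene of resident macrophages, had 90.1, 47.3 and 44.6 in Meis1cko mice, against 156, 87.4 and 91.2 in control mice. The genotypes overlapped, with a log2 fold change of -0.90 (SE 0.33, unadjusted p = 0.0274, adjusted p = 1 in limma). The complement genes C1qa and C1qc had -0.48 and -0.42, and Aif1, which encodes the microglia and macrophage protein IBA1, had -0.40. The 6 markers above 0 were Mertk (0.28), Cd14 (0.23), Cx3cr1 (0.14), Lyz2 (0.08), Fcgr1 (0.07) and Lyve1 (0.03). Cd68 and Itgam had -0.07 and -0.04, so the lower values were not shared by all macrophage markers. Between mice of the same replicate number, Mrc1 differed by -0.79, -0.89 and -1.03. The pairing was taken from these same data and not from the labels, so p-values that use it may be too small. In limma with the replicates paired, the unadjusted p of Mrc1 was 4.95e-05 and its adjusted p 0.0539. Both were smaller than those of any of the 9 MHC genes. C1qa, C1qc and Aif1 were also lower in the Meis1cko mouse of all 3 numbers, with unadjusted p of 0.0105, 0.00486 and 0.0158 in the paired fit. In that fit 5 of the 18 markers were lower at an unadjusted p under 0.05, where 3.69% of all probe sets were. Without pairing it was 1 of the 18, where 1.17% of all probe sets were lower, and none passed the adjusted threshold in either fit. Control replicate 1 was the highest array for 9 of these 18 markers, against 25.7% of all genes. The part of macrophage number in the MHC values was not tested.

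Of 9 measured dendritic cell markers, 7 lay below 0, with a median of -0.12 and summed intensities of 662 to 863 on the Meis1cko and 671 to 797 on the control arrays. The 2 above 0 were Flt3 (0.15) and Zbtb46 (0.05). The lectin gene Clec10a had -0.48, with 61.1 on control replicate 1 against 33.3 and 29.7 on the other control arrays. The chemokine receptor genes Ccr7 and Xcr1 had -0.32 and -0.18, and the costimulatory gene Cd80 had -0.17. These last genes were dim, at most 29.6 on any array, and the groups overlapped in them and in Clec10a. Of 8 B cell markers, 5 lay below 0, with a median of -0.05 and sums of 758 to 1023 on the Meis1cko and 515 to 761 on the control arrays. Ighm, the heavy chain gene of IgM, had 407, 607 and 387 in Meis1cko mice, against 223, 128 and 118 in control mice, with no overlap (1.61, SE 0.28, unadjusted p = 6.14e-04, adjusted p = 0.643 in limma). Without Ighm, a sum formed after the values had been seen, the other 7 markers came to 351, 416 and 405 in Meis1cko mice, against 538, 408 and 398 in control mice, so that the higher Meis1cko sums rested on Ighm. Of these 7, the B cell surface genes Ms4a1 and Cd22 had -0.58 and -0.29, and the receptor gene Cd79a had 0.14. Of 7 T and NK cell markers, 3 lay below 0, with a median of 0.02 and sums of 374 to 524 on the Meis1cko and 446 to 457 on the control arrays. All 5 common leukocyte genes lay below 0, with a median of -0.21 and a standard error of 0.37 for Cd53 and 0.50 for Laptm5.

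Control replicate 1, the array with the highest MHC values, was also the highest for all 4 measured blood cell markers and for 4 of the 5 common leukocyte genes. Over all genes, this array was the highest for 25.7%. Of the blood cell markers, Hba-a1 was dim, at 24.6 to 31.2 on the 6 arrays, so that its order carries little. Alas2, the heme synthesis gene of red cell precursors, had 147, 103 and 119 in Meis1cko mice, against 360, 162 and 81.3 in control mice. S100a8, a neutrophil gene, had 4016, 4134 and 2063 in Meis1cko mice, against 6258, 3045 and 1708 in control mice. The groups overlapped in both, with control replicate 1 on top. Blood in the dissected ganglia was not measured, and its part in the MHC values was not tested. The summed blood cell markers were 3724 to 6321 on the Meis1cko and 3191 to 10168 on the control arrays, with a median log2 fold change of -0.05.

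**Figure D5:**
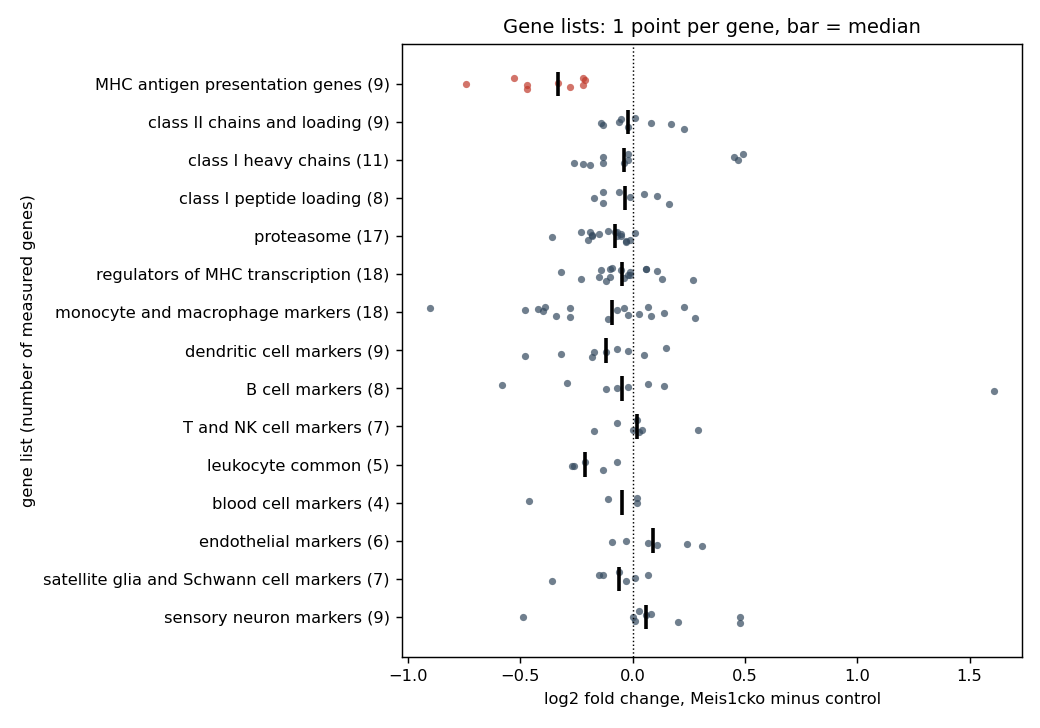
Log2 fold change (Meis1cko minus control) of each measured gene, 1 point per gene, for the 9 MHC antigen presentation genes and the other gene lists, with medians as bars. The 9 genes have a median of -0.33, monocyte and macrophage markers -0.09, common leukocyte genes -0.21 and sensory neuron markers 0.06.

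The tissue label was checked against its markers. Sensory neuron genes were bright on all arrays, and of 9 measured ones 8 lay above 0, with a median of 0.06. The neurotrophin receptor gene Ntrk3 and Scn10a, which encodes Nav1.8, were each at 0.48 with no overlap between genotypes, and the tyrosine hydroxylase gene Th was at -0.49 with overlap. Satellite glia and Schwann cell markers had a median of -0.06 over 7 genes, with -0.36 for the potassium channel gene Kcnj10, and endothelial markers a median of 0.09 over 6 genes. Meis1 itself had 66.0, 72.1 and 64.2 in Meis1cko mice, against 110, 144 and 90.2 in control mice, which is -0.74 on the log2 scale (SE 0.18). The groups did not overlap, with an unadjusted p of 0.00434 in limma. Even the targeted gene did not pass the adjusted threshold. Xist lay between 41.1 and 51.1 in Meis1cko and between 46.5 and 47.7 in control mice, and set no array apart. The Y-linked gene Eif2s3y lay between 273 and 391 in Meis1cko and between 365 and 432 in control mice. Uty had 226, 194 and 119 in Meis1cko mice, against 174, 202 and 172 in control mice. Eif2s3y and Uty were thus lowest on Meis1cko replicate 3, while Kdm5d was lowest on control replicate 3 (51.3). The array medians were 62.5 to 65.5. The log2 difference of the 3′ over the 5′ control probe set of Actb, a measure of RNA length, was 1.66, 1.32 and 0.44 in Meis1cko mice, against 1.23, 1.30 and 0.42 in control mice, and so separated both replicate 3 arrays from the others. Its part in the values was not tested.

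The genes whose level over the 6 arrays ran closest to the class II genes were found by the root mean square difference of their centred log2 intensities from the mean of H2-Aa, H2-Ab1, H2-Eb1 and Cd74. Among 12169 genes at or above the median intensity, the 5 closest were Aebp1 (0.067), Capn6 (0.103), Mfap5 (0.110), D930028M14Rik (0.115) and Gabra3 (0.129). Aebp1 and Mfap5 encode proteins of connective tissue and its elastic fibers. Aebp1 had 95.6, 78.4 and 95.5 in Meis1cko mice, against 153, 95.7 and 121 in control mice, high on control replicate 1 like the class II genes. Among the genes described, H2-Eb1 (0.059) and H2-Ab1 (0.104), which are part of this profile, were nearest to it. H2-Aa (0.238) and Cd74 (0.294), also part of it, were farther from it than Psmb9 (0.127), Tap1 (0.187) and Psmb8 (0.222), which are not. H2-DMa had 0.260 and B2m 0.301. These distances rest on 6 arrays and describe likeness only.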

How the data were processed

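Total RNA of DRGs from 3 Meis1cko and 3 control mice was hybridized to Affymetrix mouse genome arrays. The authors deposited one normalized intensity per probe set and array, not in log form, read with the GeneChip command console and processed in GeneSpring, and the method of summarising and normalizing is not given in the sources used here. No detection calls were used, and the number of arrays limits the precision.

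Intensities were taken to log2 after a floor of 1, without the 64 control probe sets. The annotation of the array names 1 gene for 34945 probe sets, while 932 have several genes and 9160 have none. The table of RefSeq promoters matched 7 of the 9 genes, and motif letters were written after the sequences had been seen. Genotypes were compared in limma 3.58.1 (lmFit, then eBayes, in R 4.3.3), with Benjamini-Hochberg adjustment over 45037 probe sets and a threshold of 0.05. A check on simulated data was run first. Its shifts were larger than the log2 fold changes of the 9 genes, and its arrays varied independently. The check therefore does not cover changes of the size seen here or deviations shared by replicate number. Each p-value sets a group difference against the variation among these mice, which limma moderates over all probe sets. In the paired fit it is the variation left after replicate number.

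The 9 genes and the gene lists were chosen with earlier results of these data known, so no list was tested. The lists cover class II, class I heavy chain, class I loading, proteasome and regulator genes and markers of macrophages, dendritic, B, T and NK cells, leukocytes, blood, endothelium, glia, neurons and sex. Of each, up to 4 genes with the smallest p were to be named, with Ciita, H2-Ea, H2-K1, H2-D1, Tap2 and Psmb10 in any case, and the 5 genes most like class II. Some of the genes so picked, among them the T and NK cell and endothelial ones, are not named in the text. Genes named only for their place in the MHC region were picked with their values in view. Deviations from the group means correlated between same-numbered arrays (0.424 in replicate 1, 0.535 in replicate 2, 0.766 in replicate 3). Arrays with different numbers correlated at 0.337 (Meis1cko 1 with control 2) and 0.319 (Meis1cko 2 with control 1) within replicates 1 and 2, and between -0.6 and -0.517 with replicate 3, so that much of this sets replicate 3 apart. The numbers were taken to pair the mice, from the data and not from the labels. Alternatives were array weights, an intensity trend, the methods' t-test, 3 normalizations, 2 filters, 2 offsets, the replicate block, the mean of all probe sets of a gene, and arrays left out.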

Additional observations from a re-analysis of the deposited data

How the results depend on the processing

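Under the 19 alternatives, all 171 log2 fold changes of the 9 genes stayed below 0 and none passed the adjusted threshold, with a smallest adjusted p of 0.112 (Psmb8, array weights). The median of the 9 genes was -0.26 with an offset of 50 and -0.50 with both replicate 3 arrays left out, and between -0.50 and -0.22 with 1 array left out. The number of genes lower at an unadjusted p under 0.05, which was 3, became 5 with array weights, 5 with the replicate block and 0 with the methods' t-test, and lay between 1 and 3 with 1 array left out, at 1 without control replicate 1 or without Meis1cko replicate 2. At the thresholds of the methods, 1 gene became 3 with array weights and 0 with the t-test, and between 0 and 3 with 1 array left out (0 without control replicate 1). Of all probe sets, 1.17% were lower at an unadjusted p under 0.05 in unpaired limma, 3.69% with the replicate block and 1.55% with the t-test. At the thresholds of the methods, the shares were 0.357% in unpaired limma and 0.206% with the t-test. Shares with array weights or with arrays left out were not counted, so those counts cannot be set against all probe sets. Over all probe sets, the 7 that passed the adjusted threshold became 177 with array weights, 37 with the replicate block, 26 without both replicate 3 arrays, 11 with quantile normalization, 4 with a filter at the median, 1 with an offset of 16, 1 with an offset of 50 and 0 with the methods' t-test, and between 1 and 15 with 1 array left out. The cause of these shifts was not tested. The replicate block changed no adjusted call of the 9 genes. With 3 mice per genotype, intervals such as that of Cd74 (-0.97 to 0.41) leave differences of either sign possible.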
